A study of Mus musculus with 6 samples.

Results

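The genes described here are 10 cell surface receptors whose stimulation opens TRPC channels through phospholipase C, chosen by name from the 34745 genes of the expression table. They are the muscarinic acetylcholine receptors Chrm1, Chrm2 and Chrm3, the tachykinin receptors Tacr1 and Tacr2, the nucleotide receptors P2ry1 and P2ry2, the endothelin receptors Ednra and Ednrb, and the thrombin receptor F2r. All 10 were found by symbol and all 10 had enough reads to be tested. RNA was sequenced from colon tissue of age-matched male mice in 2 groups of 3 libraries, TRPC-hepta knockout and TRPC-hepta control, and every mouse in both groups had received DSS for 6 days. DSS (dextran sulfate sodium) is a polysaccharide given in drinking water that injures the colonic epithelium. By the series title the knockout mice lack all 7 TRPC proteins. The sources used here do not give the ages, the strain, the deleted parts of the genes or whether each library is 1 animal. The p-values accordingly reflect the spread among these libraries, which may be technical. No mice without DSS were analysed here.

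Receptors of this kind activate the G protein Gq, which switches on phospholipase C beta. That enzyme splits a membrane lipid into diacylglycerol, which opens some TRPC channels, TRPC6 among them, and inositol trisphosphate, which releases stored calcium. In intestinal smooth muscle of mice, acetylcholine acting on M2 and M3 receptors opens TRPC4 and TRPC6, and the depolarization helps the muscle contract. Chrm2 stands apart by its coupling, because the M2 receptor signals mainly through Gi and Go proteins, so the name Gq-coupled does not strictly cover it. Tacr2 (the neurokinin A receptor) contracts gut muscle, P2ry1 carries inhibitory nucleotide signals from enteric nerves, and P2ry2 drives epithelial secretion. Ednra constricts vessels, Ednrb is needed for nerve precursors to populate the colon, and F2r is cut open by thrombin on endothelial and stromal cells.

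The 10 genes lie on 8 chromosomes, with coordinates as the table gives them on the mouse build GRCm38. Chrm1 is at chr19:8663789-8683587, Chrm2 at chr6:36388084-36528414 and Chrm3 at chr13:9875486-10360844. Tacr1 is at chr6:82402334-82560104 and Tacr2 at chr10:62252438-62265990. P2ry1 is at chr3:61002795-61008982 and P2ry2 at chr7:100996572-101011991. Ednra is at chr8:77663031-77724464, Ednrb at chr14:103814625-103844173 and F2r at chr13:95601804-95618459. In GENCODE M21 the coding sequence of the 3 muscarinic and both nucleotide receptors sits in 1 exon, while the tachykinin receptors have 5 coding exons, the endothelin receptors 7 and F2r 2. The encoded proteins run from 373 residues (P2ry1 and P2ry2) to 589 (Chrm3). Exons of Chrm1, Chrm2, P2ry1 and Ednra overlap an exon of another gene on the opposite strand, and the sources used here do not say whether reads were assigned by strand. The overlapping gene of Chrm2, 9330158H04Rik, had 199 reads over all libraries against 3693 for Chrm2. That of P2ry1 had 13 against 4388 and that of Ednra had 5 against 1938. The one of Chrm1, Gm22820, was not analysed here.

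The sequences just upstream of 4 receptor genes are shown, because these 4 stand for the patterns described below. In TMM-scaled counts Tacr2 and P2ry1 were lower in every knockout library, while Ednra and F2r moved together. RefSeq (GRCm38.p6) gave a start site for 9 of the 10 receptors, all but Chrm1. Each sequence ends at the last base before that start site, or before the first GENCODE M21 exon where that exon begins earlier. Capitals mark matches to GGGCGG, the core of a GC box, or TGANTCA, the AP-1 motif, on either strand.
Tacr2 upstream, chr10:62252188-62252437, plus strand: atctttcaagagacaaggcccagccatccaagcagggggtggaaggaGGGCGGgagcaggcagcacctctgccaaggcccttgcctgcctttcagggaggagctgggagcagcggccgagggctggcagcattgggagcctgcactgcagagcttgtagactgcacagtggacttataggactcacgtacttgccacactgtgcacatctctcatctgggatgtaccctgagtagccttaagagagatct
P2ry1 upstream, chr3:61002535-61002784, plus strand: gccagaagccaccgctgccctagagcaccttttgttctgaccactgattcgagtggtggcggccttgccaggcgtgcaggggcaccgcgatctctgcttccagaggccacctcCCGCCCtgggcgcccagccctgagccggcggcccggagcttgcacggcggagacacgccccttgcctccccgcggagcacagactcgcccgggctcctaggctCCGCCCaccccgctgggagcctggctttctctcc
Ednra upstream, chr8:77724465-77724702, minus strand: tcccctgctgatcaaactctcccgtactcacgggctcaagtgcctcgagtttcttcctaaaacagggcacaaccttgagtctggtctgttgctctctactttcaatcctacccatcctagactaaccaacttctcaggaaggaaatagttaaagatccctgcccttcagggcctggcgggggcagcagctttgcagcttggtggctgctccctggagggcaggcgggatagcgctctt
F2r upstream, chr13:95618488-95618716, minus strand: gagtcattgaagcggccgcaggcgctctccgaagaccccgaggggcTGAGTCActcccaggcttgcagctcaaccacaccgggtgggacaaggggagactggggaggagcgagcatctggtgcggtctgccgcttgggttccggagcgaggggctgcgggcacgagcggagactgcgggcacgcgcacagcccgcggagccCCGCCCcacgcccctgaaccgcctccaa

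In the 250 bases before the RefSeq start site, GGGCGG was found once in Tacr2, Chrm2 and F2r and at 2 places in P2ry1 and P2ry2. It was not found in Chrm3, Tacr1, Ednra or Ednrb. It occurs in 32.7% of the 32851 such windows in the RefSeq table. F2r alone of the 9 matched TGANTCA, found in 6.75% of windows, and Ednrb alone matched the NF-kB site, found in 7.25%. The Ednrb window (chr14:103843702-103843951) lies inside the gene coordinates given above, downstream of their 5' end. The P2ry2 window lies outside the coordinates given above but inside those of GENCODE M21, which end at 101012866. None of the 9 matched TATAAA (12.4% of windows) or the CArG box bound by serum response factor (1.47%). The matches are letters in a window and show no binding.

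The libraries differ in ways that touch every receptor. They held 13816295 to 17584992 counted reads. A weighted sum of knockout replicates 1 and 2 (weights 0.497 and 0.594) came near the counts of knockout replicate 3, and for the receptors the observed count was 0.765 (Chrm1) to 1.15 (Ednra) times that sum. Of the 10 receptors, 9 lay between replicates 1 and 2 in replicate 3, as did 72.1% of all genes tested. Whether knockout replicate 3 is a separate animal was not tested, and counts are also given without it. Colon epithelium markers were present in all libraries and summed to 20536 to 22027 CPM (read counts relative to library size after TMM scaling) in the controls, but to 8346, 29562 and 19355 CPM in knockout replicates 1, 2 and 3. Trpc1, Trpc4 and Trpc6 were still counted in the knockout, at adjusted p = 0.735 to 0.958, Trpc2 and Trpc5 were at 0 reads throughout (which allows up to 3 counts, 0.173 to 0.219 CPM a library, counting error only), and Trpc7 had 16 reads in the control and 18 in the knockout. Counts over whole genes do not check a deletion whose extent is unknown.

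Per kilobase of transcript (FPKM, the authors' length-scaled value), 5 receptors formed the upper tier of the control colon. Tacr2 stood at 10.3 ± 3.47 FPKM, P2ry1 at 7.19 ± 1.49, Chrm2 at 7.09 ± 1.82, F2r at 6.75 ± 0.404 and P2ry2 at 6.59 ± 1.13 (SD, n = 3 each), and each neighbouring pair in that order had overlapping ranges. A clear step followed. Tacr1 (2.56 ± 0.963), Ednrb (2.22 ± 0.385) and Ednra (2.04 ± 0.02) overlapped their neighbours in turn, and Chrm3 (1.07 ± 0.0774) and Chrm1 (0.48 ± 0.0184) each lay below the range of the receptor above. In the knockout F2r came first, at 16.7 ± 10.6 FPKM, and Tacr2 had moved to the eighth place, at 4.06 ± 2.58. The knockout ranges of neighbours overlapped except between Tacr2 and Chrm3 (0.709 ± 0.411). These are transcript levels and not receptor protein.

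The main comparison asked whether the receptors differed between genotypes under DSS. At an adjusted p of 0.05 (Benjamini-Hochberg over 15819 genes, quasi-likelihood test in edgeR), 0 of the 10 were past the threshold, where 1.76% of all genes tested were (1.09% higher, 0.670% lower). At an unadjusted p under 0.05 there were 5, namely F2r, Ednra and Ednrb with higher and Tacr2 and P2ry1 with lower values, against 16.0% of all genes (9.48% higher, 6.50% lower). DESeq2 put P2ry1 and Tacr2 past the threshold, against 8.11% of the genes it tested. By fold change 6 receptors were positive and 4 negative, with a median log2 fold change of 0.23 against 0.01 over all genes. Without knockout replicate 3 the count was again 0 of 10, where 0.0930% of all genes were past the threshold. It was also 0 without knockout replicate 1 (1.99% of all genes) and without control replicate 1, 2 or 3 (0.191%, 0.123% and 0.179%). Without knockout replicate 2 it was 4, namely Ednra, Ednrb and F2r higher and P2ry1 lower, against 11.2% of all genes.

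**Figure D1:**
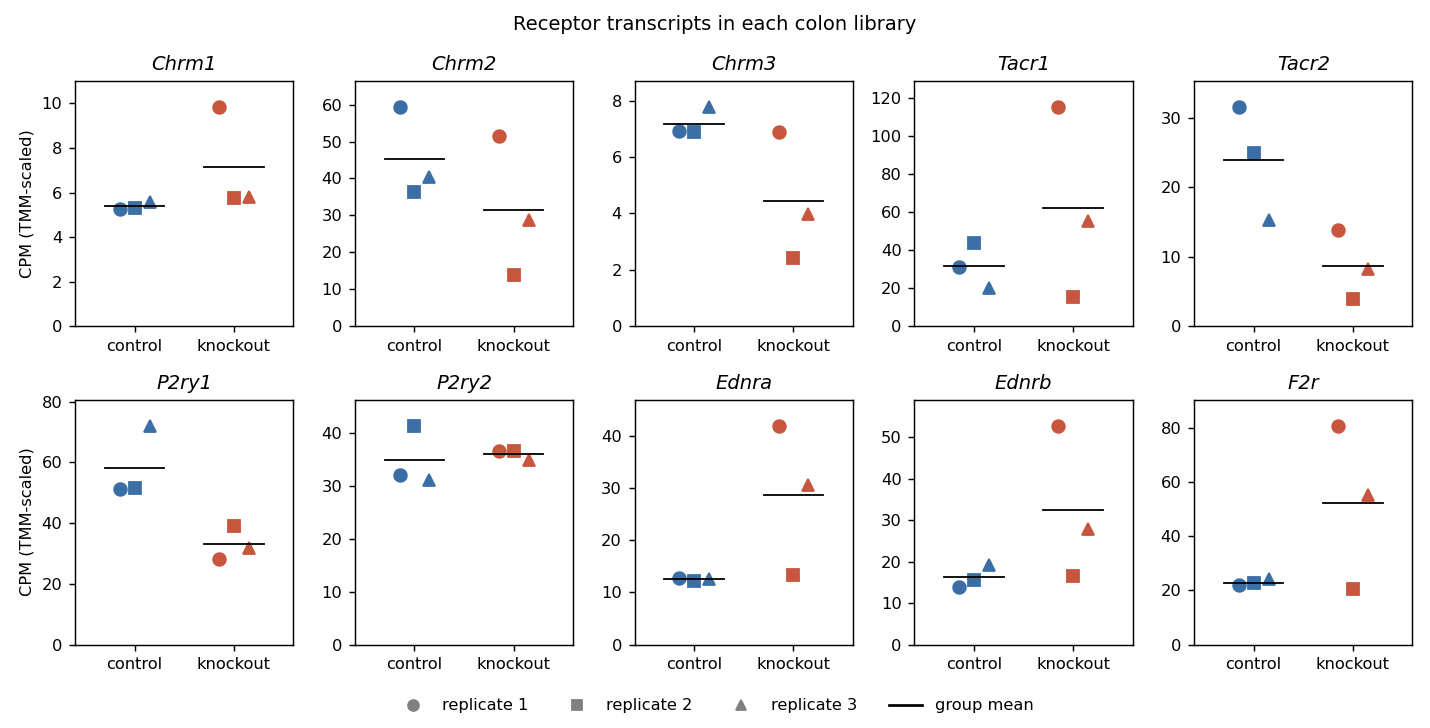
Level of each receptor in each library, in CPM after TMM scaling on linear axes that start at 0; blue symbols are control and red symbols knockout libraries, the symbol shape gives the replicate number and the black line the group mean. Tacr2 and P2ry1 were lower in all 3 knockout libraries, and for Ednra, Ednrb, F2r and Tacr1 knockout replicate 1 was the highest library and replicate 2 lay near or below the controls.

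The muscarinic receptors did not all share a profile. In CPM, Chrm2 and Chrm3 had knockout replicates 2 and 3 below every control, while Chrm1 had no knockout library below a control. Chrm2 stood at 59.3, 36.4 and 40.5 CPM in control replicates 1, 2 and 3 and at 51.6, 13.7 and 28.7 CPM in the knockout. Its groups overlapped, with knockout replicate 1 inside the control range and the others below it, and its log2 fold change was -0.53 ± 0.46 (SE, edgeR adjusted p = 0.642). Chrm3, the receptor through which acetylcholine triggers muscle contraction and epithelial secretion, was read at 6.91, 6.88 and 7.77 CPM in the control and 6.88, 2.41 and 3.99 CPM in the knockout. Here too knockout replicate 1 reached the control level while replicates 2 and 3 lay below it (log2 fold change -0.70 ± 0.39, adjusted p = 0.452). Chrm1, which is found mainly on neurons, was the least abundant per kilobase, with 79 to 150 reads a library. It stood at 5.25, 5.32 and 5.59 CPM in the control and 9.83, 5.76 and 5.79 CPM in the knockout. The groups did not overlap, but knockout replicates 2 and 3 barely cleared the highest control. In FPKM the groups overlapped, with knockout replicate 2 at 0.497 and control replicate 3 at 0.499. The log2 fold change was 0.40 ± 0.29 (edgeR adjusted p = 0.553). Leaving out a single library moved all 3 values by over 1.5 times. Without knockout replicate 1 the log2 fold change was -1.10 for Chrm2, -1.17 for Chrm3 and 0.10 for Chrm1. Without knockout replicate 2 it was -0.18, -0.41 and 0.53, and without control replicate 1 Chrm2 was at -0.30.

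The tachykinin receptors had opposite signs. Tacr2 was read at 31.5, 24.9 and 15.2 CPM in control replicates 1, 2 and 3 and at 13.8, 3.86 and 8.28 CPM in the knockout. All 3 knockout libraries lay below all 3 controls, and the lowest control lay close to the highest knockout library. In FPKM the groups overlapped, with knockout replicate 1 at 6.76 and control replicate 3 at 6.59. The log2 fold change was -1.46 ± 0.48, the largest in size among the receptors, with adjusted p = 0.205 in edgeR and 0.045 in DESeq2. Tacr1, the substance P receptor of enteric neurons and interstitial cells, stood at 31.2, 43.6 and 20.2 CPM in the control and at 115.1, 15.3 and 55.4 CPM in the knockout. Its knockout libraries straddled the controls, with replicate 2 below the lowest of them. Knockout replicate 1 exceeded replicate 2 by 7.52 times, the widest gap of the 10, and the log2 fold change of 0.97 ± 0.67 (adjusted p = 0.544) fell to 0.16 without knockout replicate 1.

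The nucleotide receptors varied little among the knockout libraries. P2ry1 had 51.2, 51.6 and 72.1 CPM in the control and 28.3, 39.2 and 31.7 CPM in the knockout. Every knockout library was below every control, and P2ry1 had the smallest p of the 10, with a log2 fold change of -0.82 ± 0.20 at an adjusted p of 0.112 in edgeR and 0.0142 in DESeq2. Its adjusted p was 0.0329 without knockout replicate 2 and 0.395 without knockout replicate 3. P2ry2 had 32, 41.3 and 31 CPM in the control and 36.5, 36.6 and 34.8 CPM in the knockout, with the knockout libraries inside the control range. Its log2 fold change was 0.05 ± 0.16 (adjusted p = 0.915), and its sign depended on the library left out (-0.03 to 0.19).

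Both endothelin receptors and the thrombin receptor had the same shape. Ednra was read at 12.7, 12.2 and 12.6 CPM in the control and at 41.9, 13.3 and 30.5 CPM in the knockout. The groups did not overlap, although knockout replicate 2 lay just above the highest control (log2 fold change 1.19 ± 0.39, edgeR adjusted p = 0.199). Ednrb stood at 13.9, 15.5 and 19.3 CPM in the control and 52.8, 16.5 and 27.8 CPM in the knockout, with replicate 2 inside the control range (0.99 ± 0.41, adjusted p = 0.308). F2r was read at 21.8, 22.7 and 24.2 CPM in the control and at 80.8, 20.6 and 55.1 CPM in the knockout, with replicate 2 below every control (1.19 ± 0.45, adjusted p = 0.263). Without knockout replicate 2 the adjusted p was 0.00705 for Ednra, 0.0367 for Ednrb and 0.00758 for F2r. Without knockout replicate 1 the log2 fold changes fell to 0.81 for Ednra, 0.44 for Ednrb and 0.73 for F2r, at adjusted p = 0.315, 0.523 and 0.432. Over the 10 receptors the groups did not overlap in CPM for 2 higher (Chrm1 and Ednra) and 2 lower (Tacr2 and P2ry1) genes. Of all genes tested 11.2% and 10.4% did the same (21.6% in all). In FPKM the groups of Chrm1 and Tacr2 overlapped, and those of Ednra and P2ry1 did not.

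**Figure D2:**
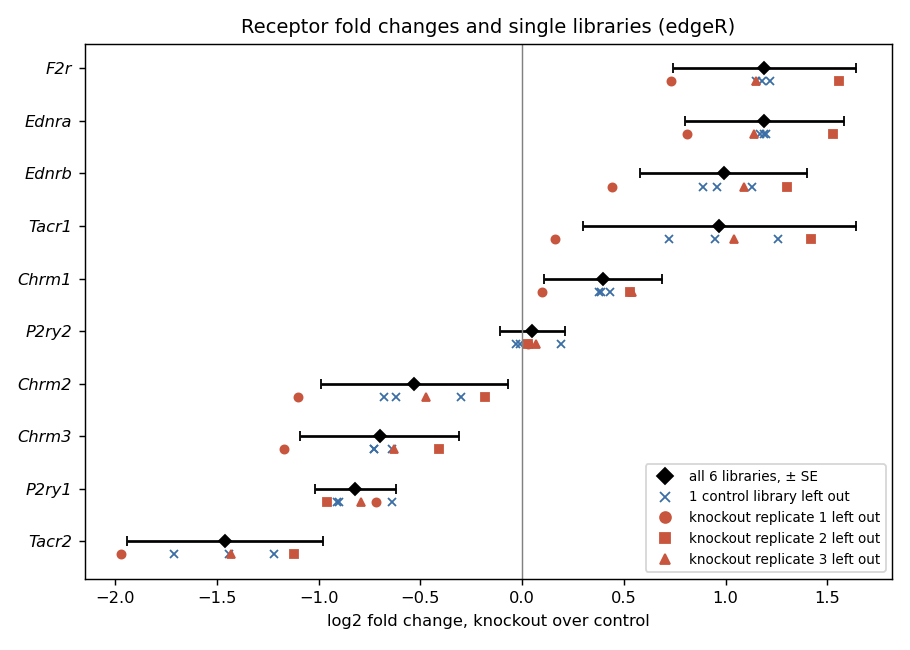
Log2 fold change of each receptor, knockout over control, by edgeR; the black diamond with its bar is the estimate ± SE from all 6 libraries, and the smaller symbols are the estimates with 1 library left out. Leaving out knockout replicate 1 or 2 moved most receptors further than leaving out any control, while P2ry1 stayed between -0.96 and -0.64 and P2ry2 lay around 0.

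For most receptors knockout replicates 1 and 2 stood far apart. Replicate 1 was at least 2-fold above replicate 2 for 7 of the 10 receptors, against 21.1% of all genes tested (33.5% differed at least 2-fold in either direction). The 7 were Tacr1 (7.52 times), F2r (3.92), Chrm2 (3.76), Tacr2 (3.58), Ednrb (3.21), Ednra (3.14) and Chrm3 (2.86). The highest control exceeded the lowest by 1.04 (Ednra) to 2.16 times (Tacr1) across the 10. Chrm1 differed by 1.71 times between these knockout replicates, P2ry2 by 0.997 times, and P2ry1 was lower in replicate 1 (0.722 times).

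Markers of several cell types moved with these differences. For the marker counts below, the shares over all genes tested were 1.76% past the threshold in edgeR and 16.0% with p under 0.05 before adjustment. DESeq2 called 8.11% of the genes it tested. Smooth muscle markers summed to 10740 to 14834 CPM in the controls and to 5216, 2432 and 3666 CPM in knockout replicates 1, 2 and 3. Of their 12 genes 4 fell and 0 rose by edgeR (12 fell by DESeq2), with a median log2 fold change of -1.57; the most read were Myh11, smooth muscle myosin (-2.12 ± 0.37, adjusted p = 0.0497), and Acta2, smooth muscle actin (-1.47 ± 0.35, adjusted p = 0.0978). Fibroblast markers, led by Dcn and Col1a2, summed to 429.8 to 543.4 CPM in the controls and 1989, 448.9 and 1166 CPM in the knockout. Enteric neuron markers, led by Prph and Stmn2, summed to 229.4 to 284.9 against 841.1, 247.5 and 514.1 CPM, and enteric glia markers, led by Gfap and Cdh19, to 48.1 to 80.2 against 225.9, 62.7 and 135.3 CPM. Endothelial markers, led by Pecam1 and Kdr, summed to 75.7 to 95.2 against 261.5, 66.8 and 156.4 CPM. Interstitial cell markers, led by Pdgfra and Kit, summed to 274.4 to 313.8 against 651.8, 175.9 and 449.4 CPM, and pericyte markers, led by Rgs5 and Abcc9, to 864.4 to 1024 against 2094, 513.7 and 1237 CPM. In each of these 6 non-muscle lists knockout replicate 1 was highest and replicate 2 lowest of the knockout libraries. In edgeR 0 members were past the threshold, and DESeq2 called 0 to 2 a list. Before adjustment p was under 0.05 for 1 of 5 interstitial cell, 2 of 8 endothelial and 3 of 9 enteric neuron markers. The counts were 2 of 5 for pericytes, 2 of 5 for enteric glia and 3 of 5 for fibroblasts. Myeloid cell markers, led by Ptprc and S100a9, rose for 3 of 8 genes in edgeR (8 with p under 0.05 before adjustment, 6 by DESeq2) and summed to 47.7 to 63.6 against 322.4, 161.7 and 215.7 CPM. Of 6 lymphocyte markers, Cd79a among them, 0 passed (2 with p under 0.05 before adjustment, 0 by DESeq2), with sums of 15.8 to 28.5 against 17.4, 64 and 40.7 CPM. Of 11 colon epithelium markers, led by Car1 and Muc2, 0 passed (0 with p under 0.05 before adjustment, 0 by DESeq2). In bulk tissue fewer cells of a type and less RNA per cell cannot be told apart, and the part of these markers in the receptor values was not tested.

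**Figure D3:**
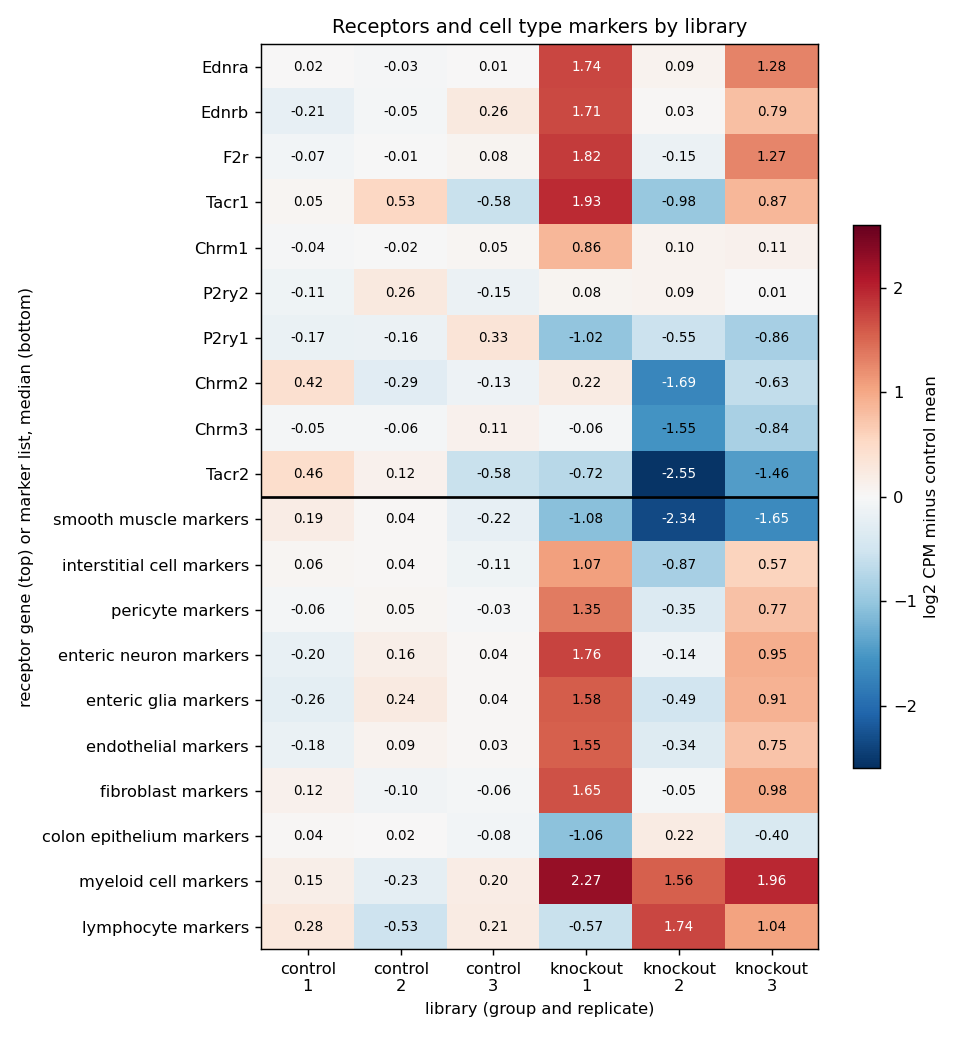
Log2 CPM minus the mean of the control libraries, for the 10 receptors (above the line) and for the median gene of each of 10 marker lists (below it), in each of the 6 libraries; red is above and blue below the control mean, and each cell prints its value. Ednra, Ednrb, F2r and Tacr1 follow the colours of the stromal, nerve and vessel lists, and Tacr2 those of smooth muscle.

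The receptors were set beside these lists by the root mean square difference of their log2 CPM profiles over the 6 libraries, each centred on its own mean, as a description without a test. Ednra lay nearest to the fibroblast list (0.147 log2 units) and Ednrb to the enteric neuron and endothelial lists (0.177 for both). F2r lay nearest to the enteric neuron and fibroblast lists (0.153 and 0.154). These lists resemble each other over the libraries, so a nearest list names no cell of origin. Tacr2 was nearest to smooth muscle (0.288, and 0.968 to the next list), as was Chrm3 (0.477), and Chrm2 was about equally far from interstitial cell and smooth muscle markers (0.552 and 0.563). Tacr1 was nearest to pericyte (0.333), Chrm1 to enteric glia (0.395), and P2ry1 and P2ry2 to colon epithelium markers (0.406 and 0.464). In log2 units, Ednra ranged over 1.77 across the libraries but its ratio to the median fibroblast marker over 0.40. For F2r and Ednrb against the median enteric neuron marker the ranges were 1.97 and 0.46, and 1.92 and 0.42. Not every ratio was narrower. P2ry2 itself ranged over 0.41 and its ratio to epithelium over 1.61, Chrm1 over 0.90 and its ratio to enteric glia over 1.20, and Chrm3 and its ratio to smooth muscle both over 1.67.

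The ratio to smooth muscle asked whether the contractile receptors moved with the muscle genes. Tacr2 minus the median smooth muscle marker, in log2 CPM, was -5.25, -5.40 and -5.57 in control replicates 1, 2 and 3 and -4.76, -5.52 and -5.04 in the knockout. The groups overlapped, at a difference of 0.30 (exact permutation test, two-sided p = 0.3, adjusted over 10 receptors 0.3). Because the muscle markers were lower in the knockout, this difference was 1.87 for the median of all genes tested, and 85.5% of all genes had higher ratios with no overlap. Chrm3 and Chrm2 lay between, with ratios higher by 1.06 and 1.18 and groups that did not overlap. The P2ry1 ratio differed by 1.07 with overlapping groups (p = 0.2, exact permutation test). Chrm1, P2ry2, Tacr1, Ednrb, F2r and Ednra had differences of 2.23, 1.94, 2.48, 2.72, 2.85 and 2.91. The 8 receptors without overlap reached p = 0.1, the smallest that the exact test of 3 against 3 allows (0.125 adjusted over the 10).

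**Figure D4:**
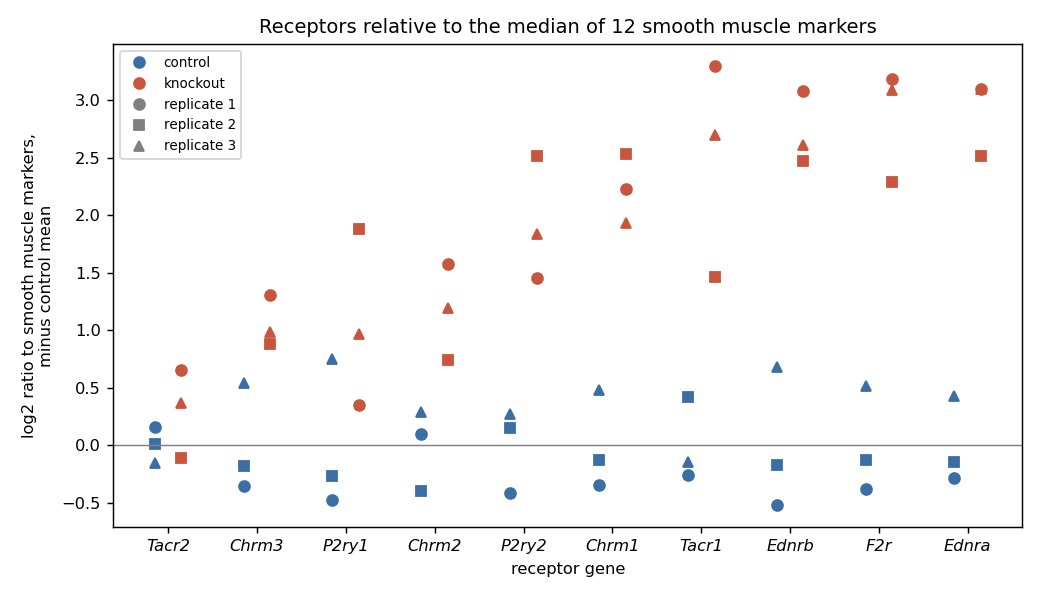
Log2 ratio of each receptor to the median of 12 smooth muscle markers in the same library, with the control mean of that receptor set to 0; blue symbols are control and red symbols knockout libraries, and the symbol shape gives the replicate number. For Tacr2, knockout replicate 2 lies among the control libraries and knockout replicates 1 and 3 lie above them. The knockout ratios of the endothelin and thrombin receptors all lie above every control library, as do those of 85.5% of all genes tested.

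Single genes with the most similar profiles, over the same 6 libraries and by the same distance among 13923 genes, were Emcn and Lysmd2 for F2r (0.059 and 0.077 log2 units), Svep1 and Lamb1 for Ednra (0.07 and 0.091) and Nrsn1 and Ramp2 for Ednrb (0.085 and 0.092). For Tacr2 they were Slc8a3 and Wfdc1 (0.183 and 0.198), and for Tacr1 Nrip3 and Rasl10b (0.11 and 0.116). P2ry1 was nearest to Slc12a2 and Ccdc61 (0.045 and 0.064) and P2ry2 to Prpf4 and Wsb2 (0.048 and 0.049). Chrm2 was nearest to Aspn and Fzd2 (0.092 and 0.1), Chrm3 to Tnxb and Nacad (0.104 and 0.109) and Chrm1 to Ubash3b and Mok (0.045 and 0.06). Tacr2 thus had the most distant nearest gene of the 10. None of these 20 genes was past the threshold.

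Upstream of the receptors, the genes that supply their ligands gave no call in edgeR. Of 14, 11 were tested and 0 passed, with a median log2 fold change of 0.44. Before adjustment 3 had p under 0.05, and DESeq2 called Tac1, against 16.0% and 8.11% of all genes by these rules. Tac1, the precursor of substance P and neurokinin A, stood at 29.6, 34.7 and 26.7 CPM in the control and 165.4, 28.6 and 92.5 CPM in the knockout, which is the shape of Tacr1 and opposite in sign to Tacr2. Slc18a3, the vesicular acetylcholine transporter, had a log2 fold change of 1.71 ± 0.62, Chat, which makes acetylcholine, 0.69 ± 0.42, and Panx1, an ATP release channel, -0.53 ± 0.20. Edn1, an endothelin that acts on both receptors, stood at 21.5, 19.1 and 37.4 against 50.4, 20.8 and 34.3 CPM (edgeR adjusted p = 0.65). Edn3, the main partner of Ednrb, stood at 25.3, 25 and 13.8 against 26, 26.5 and 26.5 CPM (edgeR adjusted p = 0.625). For F2, prothrombin, 10 reads in all were found in the control group and 4 in the knockout group. Of 8 genes that break down or capture the ligands 0 passed, with a median of 0.45. Before adjustment 1 had p under 0.05, against 16.0% of all genes, and DESeq2 called 0. Thbd, thrombomodulin, had a log2 fold change of 1.20 ± 0.38, Mme, the peptidase that cuts tachykinins, 1.14 ± 0.51, and the nucleotidases Entpd1 and Entpd3 1.03 ± 0.52 and 0.74 ± 0.47.

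Downstream, the shared transducers had medians near 0. Of 9 genes for Gq subunits, their chaperone and phospholipase C beta, 8 were tested and 0 passed, nor did any before adjustment or by DESeq2, with a median log2 fold change of 0.03. Gnaq, the Gq alpha subunit, stood at 101, 97.5 and 83.2 CPM in the control and 103.3, 85.5 and 98.7 CPM in the knockout. Gna14, another subunit of that class, was the highest of the list (1.04 ± 0.44), Plcb4 had 0.36 ± 0.35, Gna11 -0.28 ± 0.33 and Plcb2 -0.20 ± 0.33. The 5 Gi and Go subunits, the partners of Chrm2, had a median of 0.05 and 0 calls (0 with p under 0.05 before adjustment, 0 by DESeq2). Their values ran from -0.21 ± 0.38 (Gnai1) to 0.15 ± 0.40 (Gnaz), with Gnai2 at 0.12 ± 0.13 and Gnai3 at -0.07 ± 0.22. Of 9 inositol trisphosphate receptors and protein kinases C, 0 passed, with a median of -0.20. Prkch alone had p under 0.05 before adjustment and was called by DESeq2, against 16.0% and 8.11% of all genes by these rules. Prkch had 1.11 ± 0.26 (adjusted p = 0.0922), Prkca -0.75 ± 0.41, Prkcb 0.61 ± 0.38 and Itpr2 -0.70 ± 0.45.

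**Figure D5:**
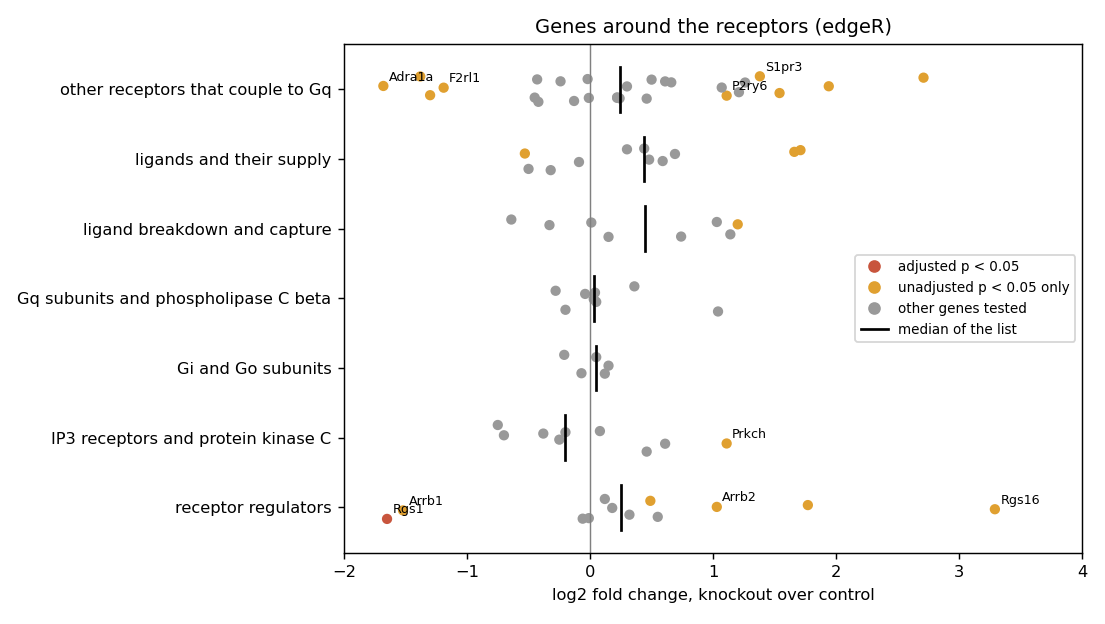
Log2 fold change, knockout over control by edgeR, of the tested genes in 7 lists around the receptors; each point is a gene, red where the adjusted p was under 0.05 and orange where only the unadjusted p was, and the black bar is the median of the list. Points are spread vertically at random within a list, genes with an unadjusted p under 0.01 are named, and Rgs1 is the 1 red point.

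Regulators that switch the receptors off held the only pathway gene past the threshold in edgeR. Rgs1, which speeds the shut-off of Gi and Gq signals and is known mainly from immune cells, fell from 43.8, 49.6 and 32.5 CPM in the control to 11.4, 13 and 15.7 CPM in the knockout (log2 fold change -1.65 ± 0.22, edgeR adjusted p = 0.0252). The groups were far apart and the knockout libraries close together. The call was lost without knockout replicate 3 and without any 1 control library, and held without knockout replicate 1 or 2. The part of lymphocyte or other immune cell markers in the Rgs1 values was not tested. Of the 13 regulators 12 were tested, and in edgeR 1 fell and 0 rose, with a median log2 fold change of 0.25. Before adjustment 4 higher and 2 lower had p under 0.05, against 9.48% higher and 6.50% lower over all genes. DESeq2 called Rgs16 and Arrb2 higher and Rgs1 and Arrb1 lower, against 8.11% of the genes it tested. Rgs16 stood at 0.926, 1.62 and 1.46 against 22.6, 4.01 and 12.6 CPM (3.29 ± 0.65, adjusted p = 0.067). The arrestins, which uncouple and internalize receptors, had opposite signs, with Arrb2 at 1.03 ± 0.24 (adjusted p = 0.0975) and Arrb1 at -1.52 ± 0.40 (adjusted p = 0.131).

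Among 42 other receptors that couple to Gq, 27 were tested and 0 passed in edgeR, with a median log2 fold change of 0.24. Before adjustment 5 higher and 4 lower of the 27 had p under 0.05, against 16.0% of all genes. DESeq2 called 4 higher and 2 lower of the 27, against 8.11% of the genes it tested. It also called Bdkrb1, which was below the edgeR filter on low counts (log2 fold change 2.76, adjusted p = 0.0331). F2rl1, the trypsin-cut relative of F2r in epithelium, was the most read of the 4 with the smallest p. It stood at 190.2, 200 and 158.6 CPM in the control and 48, 110.9 and 81.7 CPM in the knockout, a change of -1.19 ± 0.30 (adjusted p = 0.119) with no overlap, opposite in sign to F2r. Its lowest library was knockout replicate 1, the library with the lowest epithelium markers and the highest F2r. Adra1a, an adrenergic receptor, had a log2 fold change of -1.68 ± 0.42, S1pr3, a sphingosine phosphate receptor, 1.38 ± 0.36, and P2ry6, the UDP receptor, 1.11 ± 0.30, at adjusted p = 0.114, 0.128 and 0.137. Over the 7 lists, 80 of 100 genes were tested and 1 (Rgs1) was past the threshold in edgeR, a share near the 1.76% of all genes. DESeq2 called 13 genes of these lists, against 8.11% of all genes it tested.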

How the data were processed

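Per the file headers, the deposited table lists 34745 genes with raw read counts and FPKM for 6 libraries. The authors' counts are whole and carry no normalization. The FPKM values of the authors followed count over library total within 0.01 log2 units for all 11507 genes with at least 50 reads in every library. Tools in the submitters' processing notes are edgeR, StringTie 1.3.0 and HISAT2 2.0.4, with no roles, and their builds are mm8 and GRCh38. The table's coordinates overlap those of GENCODE M21 on GRCm38 for 99.9% of 34267 shared identifiers. How reads were trimmed, assigned by strand or shared between genes is unstated there. The design text says duplicate, but 3 samples were deposited per group.

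All genes were fitted with edgeR 4.0.16 in R 4.3.3 (TMM, its filter on low counts, quasi-likelihood test of knockout against control, two-sided, no replicate block, Benjamini-Hochberg, threshold 0.05), and only the rows of the receptors and of gene lists are printed. Standard errors were derived from the test statistic. Log2 CPM used a prior count of 1. The tests were run on simulated counts with the same spread for every gene and no differences among the libraries of a group. The knockout libraries here do differ, so that check gives no error rates for these data. Alternatives were DESeq2 1.42.0, RLE factors, library totals, no filter, limma 3.58.1 on log2(FPKM + 1) and log2(FPKM + 0.1), a replicate block, leaving out each library, and for ratios prior counts of 0.5 and 2 and the mean of the markers. The receptors, lists and rule for named genes were chosen with earlier results of these data known. The rule names all receptors and TRPC genes, the genes past the threshold or up to 4 with the smallest p of each pathway list, the 2 most read markers of each marker list, and the 2 nearest profiles per receptor among named genes with at least 1 CPM. Edn1, Edn3, Gnaq and F2 were added as ligands or transducers of the receptors after their values were seen. A TRPC gene and a marker that the rule names are not reported here. Grk2, Grk3 and Ric8a were matched through RefSeq synonyms.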

Additional observations from a re-analysis of the deposited data

How the results depend on the processing

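Of the 10 receptors, 0 were past the threshold of 0.05 under every edgeR scaling and filter, both limma fits and the replicate block; DESeq2 gave 2 (Tacr2 and P2ry1), and leaving out 1 library gave 0 to 4. Leaving out knockout replicate 2 alone put any receptor past it in edgeR (Ednra, Ednrb, F2r and P2ry1). Signs held in all 13 alternatives except for P2ry2, at -0.01 and -0.03 without control replicate 1 and 3 (range -0.03 to 0.19 with 1 library left out). Over all genes the count of 278 became 9 with the replicate block and 1448 by DESeq2, and 15 to 1825 with 1 library left out. Over the pathway genes the count of 1 became 0 with the block and 13 by DESeq2, which called 8.11% of all genes it tested. The 13 include Bdkrb1, which edgeR did not test. With 1 library left out the pathway count was 0 to 17. The 17 came without knockout replicate 2, where 11.2% of all genes were past the threshold. Deviations from the group means correlated at 0.038, -0.165 and -0.02 between control and knockout libraries of numbers 1, 2 and 3. For libraries of different numbers the correlations ran from -0.189 to 0.192. This gives no sign that the replicate numbers pair the samples, but 3 libraries a group cannot exclude it. The block result is therefore given only here. The ratios to smooth muscle markers moved by less than the SD pooled over control and knockout libraries under all 9 of their alternatives (Tacr2 from 0.13 to 0.50); leaving out libraries was added there after seeing the data. The median log2 fold change over all genes shifted by less than 0.1 with any scaling. Depth was lowest for Chrm1 and Chrm3, with 79 to 150 and 33 to 128 reads a library.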

Other observations

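Hrh1, the histamine receptor that couples to Gq, was singled out after its values were seen. It had 0.494, 0.636 and 0.85 CPM in control replicates 1, 2 and 3 and 6.29, 6.05 and 0.747 CPM in the knockout. Its log2 fold change was 2.71 ± 0.79 in edgeR, with adjusted p = 0.161 in edgeR and 0.012 in DESeq2. Knockout replicates 1 and 2 held 96 and 83 reads while replicate 3 held 12, where the weighted sum of the other knockout libraries gives 97 (an observed share of 0.124). Among the 80 tested pathway genes this was the largest shortfall of replicate 3 from that sum, the next being Mme at 0.533. Bdkrb1, the bradykinin receptor that appears in injured tissue, was below the edgeR filter on low counts. It had 3, 9 and 8 reads in the control libraries and 75, 6 and 45 in knockout replicates 1, 2 and 3. This was the same order of knockout libraries as F2r and Ednra. DESeq2 called Bdkrb1 higher (log2 fold change 2.76, adjusted p = 0.0331).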
